A study of Homo sapiens with 12 samples.

Results

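The translation initiation and elongation factors are the proteins that recruit ribosomes to mRNAs, find the start codon and add amino acids to the growing chain. They were taken as the protein-coding genes whose symbols start with EIF1 to EIF6, EEF1 or EEF2, without the EIF2AK kinases, the EIF4EBP genes and pseudogenes. The rule gave 64 genes of the 60617 rows of the count table, and it used no measured value. Of these, 61 passed the filter on low counts. The germline cap-binding gene EIF4E1B and the methyltransferase gene EEF1AKMT1 did not pass, and the Y-linked EIF1AY did not pass and no level of it is given. All were measured in NCI-H295R, a steroid-producing cell line from a human adrenocortical carcinoma. The EZH2i group received EPZ-6438, an inhibitor of the histone methyltransferase EZH2, at 62 µM for 96 h. The CBPi group received PRI-724, a CBP/beta-catenin inhibitor, at 26 µM for 96 h. The labels call both doses the IC-50. The FSK group was kept in vehicle for 48 h and then received forskolin, which raises cAMP, at 10 µM for 48 h. The baseline group received the DMSO vehicle for 96 h. Each group had 3 biological replicates grown in 6-well plates from this 1 cell line, and polyadenylated RNA was sequenced.

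In initiation, eIF4E binds the mRNA cap, eIF4G joins it to the helicase eIF4A, and eIF3 ties the mRNA to the small ribosomal subunit. eIF2 brings the initiator tRNA, eIF2B recharges eIF2 with GTP, and eIF1, eIF1A and eIF5 govern the choice of start codon. In elongation, eEF1A delivers aminoacyl-tRNAs, the eEF1B subunits recharge eEF1A, eEF2 moves the ribosome along, and eIF5A eases peptide bond formation at difficult sequences. Many of these mRNAs begin with a C and a run of pyrimidines (a 5′ terminal oligopyrimidine, or TOP, start), through which mTOR and LARP1 control their translation. In the adrenal cortex, ACTH acts through cAMP, the second messenger that forskolin raises. Only mRNA was measured here, not protein or translation rate.

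Total counts per library, in megacounts, ran from 29.5 to 31.5 with EZH2i, 20.6 to 28.8 with CBPi, 23.4 to 25.4 with FSK and 21.0 to 27.0 at baseline. The adrenocortical character of the cells moved with treatment. All 8 markers (NR5A1, STAR, CYP11A1, CYP17A1, CYP21A2, HSD3B2, FDX1 and INHA) were lower with EZH2i and with CBPi, and 7 of the 8 were higher with FSK by edgeR's test. None moved the other way, also at an unadjusted p under 0.05 and by DESeq2 and limma voom (0 genes each). Of 10 markers of other cell types, 5 passed the filter. The summed level of all 10 was 81.3 to 86.5 CPM (counts per megacount, TMM-scaled) with EZH2i, 109 to 118 CPM with CBPi, 49.0 to 51.4 CPM with FSK and 74.0 to 77.6 CPM at baseline. Most of that sum was CHGB, a gene of neuroendocrine cells, at 55.02 to 61.4 CPM with EZH2i, 91.1 to 95.3 CPM with CBPi and 17.96 to 19.7 CPM with FSK, against 46.9 to 49.1 CPM at baseline. Of the 5 tested, 2 were higher and 1 lower with EZH2i, 2 higher and 1 lower with CBPi, and 3 higher and 2 lower with FSK. With FSK, CHGB and the collagen gene COL1A1 were lower, and LUM (4.10 to 5.46 CPM, against 0 to 0.0736 CPM at baseline), CD68 (0.807 to 1.076 CPM, against 0.0941 to 0.182 CPM) and EPCAM (17.98 to 19.5 CPM, against 10.6 to 12.3 CPM) were higher. PTPRC, CD3E, PECAM1, CDH5 and TH stayed at or below 0.137 CPM in every library. The part of these shifts in the results below was not tested. In bulk samples, fewer cells of a kind and less RNA per cell cannot be told apart.

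As a group, the factors leaned lower with EZH2i and higher with FSK, in changes that were mostly small. With EZH2i, 12 of the 61 tested members were higher and 32 lower than baseline by edgeR's quasi-likelihood test at an adjusted p under 0.05 (Benjamini-Hochberg over 20360 genes), where 29.5% of all genes were called higher and 28.3% lower. With CBPi, 19 were higher and 25 lower, against 29.8% and 29% of all genes. With FSK, 34 were higher and 10 lower, against 25.5% and 25.1% of all genes. The members called made up 72.1% in each comparison. Among the 11070 genes with a mean of at least 10 CPM, the level range that holds 55 of the members, 71% were called with EZH2i (33.2% higher and 37.8% lower), 72.3% with CBPi (35.6% and 36.7%) and 62% with FSK (30.9% and 31.1%). The number of members called was thus near the background of well-expressed genes, and the directions were less even among the members than among those genes. That difference was not tested. Their median log2 fold change was -0.15 with EZH2i, -0.07 with CBPi and 0.14 with FSK, beside 0.02, 0.01 and 0.01 over all genes tested.

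The split with FSK depended on scaling. Under library size alone it was 24 higher and 13 lower, and the count of 10 lower members became 5 without baseline replicate 2. Few changes were large. Tested against a 1.5-fold change (glmTreat in edgeR), 2 members were called with EZH2i (EIF5A2 higher and EEF1B2 lower), 1 with CBPi (EIF1, higher) and 0 with FSK, where 0 also passed this test unadjusted. Among all genes, 11.4%, 12.2% and 11.8% were called by this test with EZH2i, CBPi and FSK. The 3 treatments were each set against the same baseline libraries, so their values stand side by side below and their likeness is not tested.

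**Figure D1:**
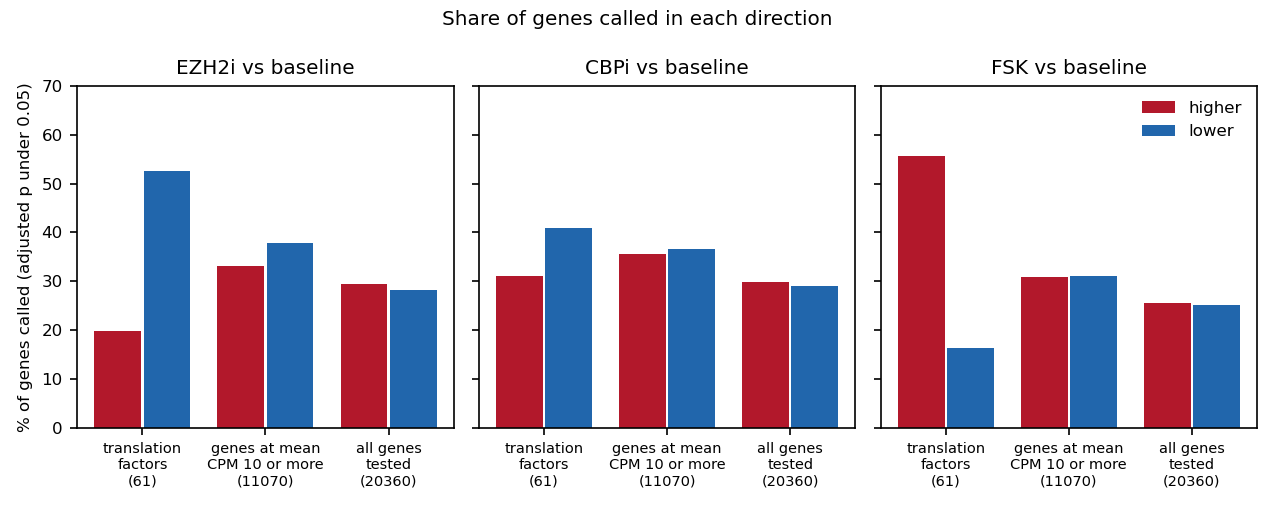
Share of genes (%) called higher (red) or lower (blue) than baseline at an adjusted p under 0.05, for the 61 tested translation factors, the 11070 genes with a mean of at least 10 CPM and all 20360 genes tested. The factors show 12 higher and 32 lower with EZH2i, 19 and 25 with CBPi and 34 and 10 with FSK, while the background shares are close to even in each panel.

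Together the 63 members whose levels are given took 1.255% ± 0.020 of all counts in the EZH2i libraries, 1.40% ± 0.012 with CBPi, 1.41% ± 0.020 with FSK and 1.29% ± 0.027 at baseline (SD, n = 3 each). The CBPi and FSK libraries lay above every baseline library, and the EZH2i range overlapped that of baseline. The most abundant members weigh most in this share. With CBPi, EEF1A1 averaged 4042 CPM against 3339 CPM at baseline, and EEF2 1823 CPM against 1439 CPM. By count of members, 19 were higher and 25 lower with CBPi, so its larger share is not a rise of most members. Per kb of gene model, the most abundant member at baseline was EEF1A1 at 610 ± 34.5 CPM per kb. EEF2 followed at 358 ± 5.6, EIF5A at 238 ± 8.8, the eEF1B subunit gene EEF1G at 138 ± 4.8 and EIF1 at 118 ± 3.2 CPM per kb. The spreads of these 5 neighbours did not overlap. At the other end, EIF4E3 lay at 0.602 ± 0.022 CPM per kb, and EIF4E1B was at 0 counts in all 3 baseline libraries. The cap-binding EIF4E, at 4.63 ± 0.16 CPM per kb, lay far below its scaffold partner EIF4G1 at 85.4 ± 2.3 CPM per kb. These per-kb levels used the deposited gene lengths, which join all exons of a gene and so understate genes with long rare exons.

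RefSeq promoter windows (GRCh38.p14) were found for 50 members, and 13 of these, 26.0%, had at least 1 window whose annotated start is a C followed by at least 4 more pyrimidines. Of 15843 protein-coding genes, 6.24% had such a window. The difference was not tested. The following stretches of 30 bases are shown because they carry this start, with the 15 bases before the start and 15 from it, 5′ to 3′ on the gene's strand, and the pyrimidine run in capitals.
EEF1A1 (chr6:73521018-73521047, minus strand): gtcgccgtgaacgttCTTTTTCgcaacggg
EEF1B2 (chr2:206159880-206159909, plus strand): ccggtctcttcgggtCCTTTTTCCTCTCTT
EEF2 (chr19:3985449-3985478, minus strand): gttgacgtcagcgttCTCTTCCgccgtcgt
EIF3F (chr11:7987322-7987351, plus strand): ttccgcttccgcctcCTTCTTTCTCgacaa
EIF4B (chr12:53006441-53006470, plus strand): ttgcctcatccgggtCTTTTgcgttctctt
EIF4A2 (chr3:186783562-186783591, plus strand): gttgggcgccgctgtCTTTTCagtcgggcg
EIF4A1 is set beside its paralogue EIF4A2 because it lacks the run. Its first base alone is in capitals.
EIF4A1 (chr17:7572810-7572839, plus strand): aggcgggcactccgcCctagtttctaagga
The other members with the run were EIF2A, EIF2D, EIF2S3, EIF2S3B, EIF3D, EIF3K and EIF3M.

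The mRNAs with this start did not form a block that moved one way. Of the 13, 3 were higher and 8 lower with EZH2i, 5 higher and 4 lower with CBPi, and 7 higher and 1 lower with FSK. Of the 36 tested members with a window and no run, 7 were higher and 18 lower with EZH2i, 8 higher and 18 lower with CBPi, and 21 higher and 8 lower with FSK. Over all genes tested, 29.5% were higher and 28.3% lower with EZH2i, 29.8% and 29% with CBPi, and 25.5% and 25.1% with FSK. The median log2 fold change was 0.08 for the members with the run and -0.13 for those without it with CBPi. The medians were -0.20 and -0.16 with EZH2i, and 0.14 and 0.18 with FSK. An annotated start is not a measured one, and the libraries do not show where transcripts began.

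The cap-binding and unwinding factors (eIF4) split by gene with every treatment. Of the 12 tested, 4 were higher and 3 lower with EZH2i, 5 higher and 6 lower with CBPi, and 5 higher and 3 lower with FSK. With FSK this became 2 higher and 6 lower under library size alone. The calls made up 58.3%, 91.7% and 66.7% of the 12, beside 71%, 72.3% and 62% of genes with a mean of at least 10 CPM. EIF4E (chr4:98871684-98930637, minus strand) had 47.6, 45.8 and 47.0 CPM with EZH2i, 41.9, 43.8 and 45.7 CPM with CBPi and 55.8, 50.5 and 54.0 CPM with FSK, against 62.5, 65.7 and 67.0 CPM at baseline. Every treated library lay below every baseline library. The log2 fold changes were -0.48 ± 0.05, -0.57 ± 0.05 and -0.28 ± 0.05 (SE), with edgeR adjusted p = 1.31e-07, 1.23e-08 and 1.09e-04. Counts of the EIF4E pseudogene copies made up 25.5% to 26.3% of the family in the 4 groups.

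EIF4E2, which encodes a cap-binding relative (4EHP) known as a translational repressor, had 42.4, 41.8 and 41.3 CPM with EZH2i and 34.9, 39.5 and 38.6 CPM with CBPi, against 56.7, 59.4 and 57.6 CPM at baseline. Both inhibitor groups lay below all baseline libraries, at log2 fold changes of -0.47 ± 0.05 and -0.62 ± 0.05 (SE; edgeR adjusted p = 1.94e-07 and 5.06e-09). With FSK it had 55.6, 51.8 and 51.7 CPM, and the fold change of -0.13 ± 0.05 (edgeR adjusted p = 0.0481) was lost in 11 of 21 alternatives, 9 of them by leaving out 1 library. Those without any 1 of the 3 baseline libraries gave -0.15 to -0.11 (adjusted p = 0.0505 to 0.158), those without FSK replicate 2 or 3 gave -0.11 for both (0.137 and 0.139), and those without any 1 EZH2i library or CBPi replicate 3 gave -0.13 (0.0521 to 0.0613).

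The scaffold EIF4G3 had 198, 196 and 190 CPM with EZH2i, 204, 216 and 197 CPM with CBPi and 183, 184 and 188 CPM with FSK, against 157, 142 and 142 CPM at baseline. It was higher with all 3, at log2 fold changes of 0.41, 0.49 and 0.34 ± 0.05 (SE), with no overlap. EIF4G1, the main scaffold, was higher with EZH2i and FSK. It had 774, 780 and 744 CPM with EZH2i and 827, 848 and 851 CPM with FSK, against 726, 699.6 and 689.5 CPM at baseline. The FSK change of 0.26 ± 0.04 was the larger (edgeR adjusted p = 2.2e-05). That with EZH2i was 0.12 ± 0.04 (0.0159), and it missed the threshold without EZH2i replicate 1 or 2 and without baseline replicate 2 or 3, at values of 0.10 to 0.11. With CBPi the EIF4G1 libraries held 710, 642 and 669 CPM, a log2 difference of -0.07 ± 0.04 (edgeR adjusted p = 0.167), which became -0.11 (0.0375) without CBPi replicate 1.

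EIF4G2 encodes a scaffold relative (DAP5) that does not bind eIF4E. It had 526, 538 and 522 CPM with EZH2i, 483, 497 and 479 CPM with CBPi and 511, 489.9 and 513 CPM with FSK, against 462, 453 and 456 CPM at baseline. Its libraries were higher with all 3 treatments without overlap, but the rises were small, at log2 fold changes of 0.21, 0.09 and 0.14 ± 0.04 (SE; edgeR adjusted p = 3.86e-05, 0.0339 and 0.002). The call with CBPi was lost in 10 of 21 alternatives, among them those without EZH2i replicate 1 or 2, CBPi replicate 1 or 2, or any 1 baseline library, with values of 0.06 to 0.10. The call with FSK was lost in 1 of 21, which was not a fit without 1 library. Its lowest value over the alternatives was 0.07.

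The eIF4A helicases did not move together. EIF4A1 (chr17:7572706-7579005, plus strand) had 185, 217 and 194 CPM with CBPi, against 231, 248 and 251 CPM at baseline, and EIF4A2 (chr3:186783205-186789900, plus strand) had 215, 263 and 242 CPM with CBPi, against 193, 209 and 219 CPM at baseline. The EIF4A1 groups did not overlap and the EIF4A2 groups did. Log2 fold changes were -0.29 ± 0.05 and 0.21 ± 0.06 (SE; edgeR adjusted p = 5.33e-05 and 0.00397). Of the per-kb level of the pair, EIF4A2 took 42.9% ± 0.57 with EZH2i, 51.1% ± 0.86 with CBPi, 37.3% ± 0.08 with FSK and 42.5% ± 0.51 at baseline (SD, n = 3 each). Every CBPi library lay above and every FSK library below the others. With FSK, EIF4A1 had 286, 272 and 274 CPM, a log2 fold change of 0.19 ± 0.05 (edgeR adjusted p = 0.00382; 0.12 and 0.0561 under library size alone), and EIF4A2 had 196, 187 and 189 CPM, a log2 difference of -0.12 ± 0.06 (0.0965). Leaving out CBPi replicate 1 or 2 or baseline replicate 1 took the EIF4A2 difference past the threshold, at -0.17 to -0.12. In all, 6 of 21 alternatives did so, and the lowest value over the 21 was -0.19. With EZH2i, EIF4A1 had 223, 230.0 and 229 CPM and EIF4A2 190, 198 and 203 CPM, and neither passed (-0.10, adjusted p = 0.107, and -0.07, 0.305). EIF4A1 passed at -0.10 without CBPi replicate 2 and at -0.14 without baseline replicate 1, and in 3 of 21 alternatives in all.

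EIF4A3 (chr17:80135214-80147183, minus strand) shares the family name but is known as the helicase of the exon junction complex. It had 108, 105 and 111 CPM with EZH2i, 108, 109.6 and 106 CPM with CBPi and 163, 163 and 163 CPM with FSK, against 163, 162 and 161 CPM at baseline. Both inhibitor groups lay far below the other 6 libraries, and FSK overlapped baseline. The log2 fold changes were -0.59 ± 0.04 with EZH2i and -0.59 ± 0.04 with CBPi (SE; edgeR adjusted p = 7.29e-11 and 7.05e-11), and the FSK difference was 0.01 ± 0.04 (0.891). Of the other eIF4 members, EIF4B, a helper of eIF4A, was higher with CBPi and FSK (0.17 and 0.10), and EIF4H, another helper, was lower with both (-0.28 and -0.10). The low-level EIF4E3 was higher with EZH2i (0.30) and lower with CBPi (-0.29). EIF4ENIF1, whose product carries eIF4E into the nucleus, was higher with CBPi, at 0.14. With 1 library left out, the FSK calls of EIF4B and EIF4H were lost in 3 and 4 of 12 fits. The EIF4E3 calls were lost in 4 with EZH2i and 10 with CBPi, and the EIF4ENIF1 call in 4.

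**Figure D2:**
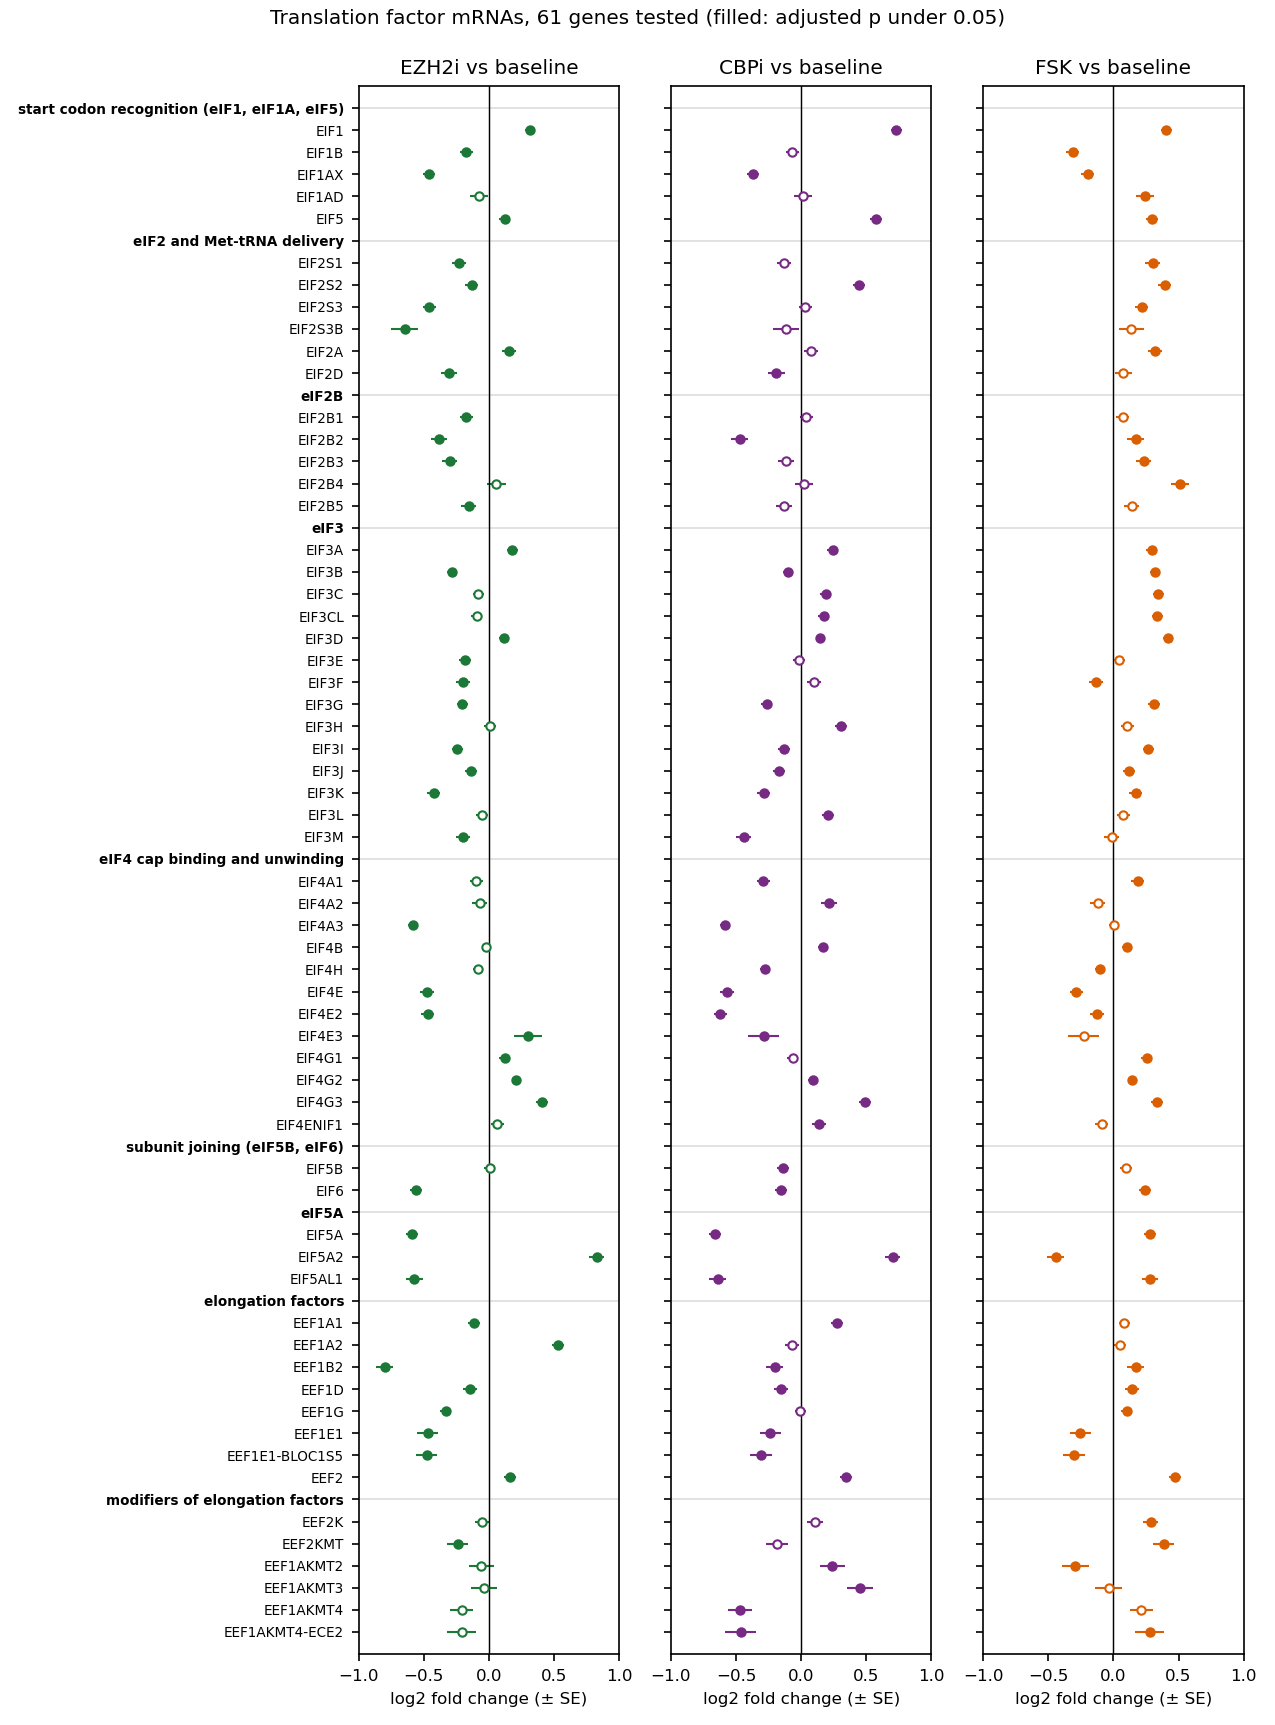
Log2 fold change against baseline (x axis, ± SE) of the 61 tested members, grouped by role, for EZH2i, CBPi and FSK (panels); filled points passed at an adjusted p under 0.05. EIF5A and EIF5A2 stand at opposite sides in every panel, and with FSK 9 of the 14 eIF3 genes lie on the higher side as filled points. Over all genes tested, 25.5% were called higher with FSK.

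Among the start codon factors, EIF1 was higher with all 3 treatments and most with CBPi. EIF1 (chr17:41688885-41692668, plus strand) encodes the factor that keeps the scanning ribosome from stopping at poor start codons. It had 526, 523 and 547 CPM with EZH2i, 703, 706 and 722 CPM with CBPi and 597, 542 and 564 CPM with FSK, against 415, 434 and 436 CPM at baseline. No treated library overlapped baseline, and the CBPi libraries were the highest. Log2 fold changes were 0.31, 0.73 and 0.41 ± 0.04 (SE; edgeR adjusted p = 1.34e-06, 5.63e-12 and 4.18e-08), and with CBPi the change was above 1.5-fold (glmTreat adjusted p = 0.00225).

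EIF5, the GTPase-activating partner of eIF2, was also higher with all 3. It averaged 184 ± 6.9 CPM with EZH2i, 251 ± 9.0 with CBPi and 208 ± 7.3 with FSK, against 169 ± 5.8 CPM at baseline (SD, n = 3 each). The log2 fold changes were 0.12, 0.57 and 0.30 ± 0.04 (SE). The EIF5 call with EZH2i (edgeR adjusted p = 0.0241) was lost in 4 of 12 fits without 1 library, at 0.09 to 0.12. The paralogue EIF1B was lower with EZH2i and FSK (-0.17 and -0.31), and EIF1AX, the X-linked eIF1A gene, was lower with all 3 (-0.46, -0.37 and -0.20). The eIF1A-domain gene EIF1AD was higher with FSK (0.24). EIF1B took 20.0% ± 0.82 of the summed per-kb level of EIF1B and EIF1 with EZH2i, 16.8% ± 0.026 with CBPi and 17.6% ± 0.78 with FSK, against 26.0% ± 0.37 at baseline (SD, n = 3 each). The EIF1AX copies on other chromosomes held 21.1% to 22% of that family's counts in each group.

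The eIF2 genes were mostly lower with EZH2i and higher with FSK. Of 6 tested, 1 was higher and 5 lower with EZH2i, 1 higher and 1 lower with CBPi, and 4 higher and 0 lower with FSK, where 0 were lower also unadjusted and by DESeq2 and limma voom. The calls made up 100%, 33.3% and 66.7% of the 6, beside 71%, 72.3% and 62% of genes with a mean of at least 10 CPM. EIF2S1 encodes eIF2α, the subunit that stress kinases phosphorylate. It had 75.2, 72.4 and 67.4 CPM with EZH2i and 106, 96.8 and 108 CPM with FSK, against 79.0, 87.1 and 85.8 CPM at baseline. The EZH2i libraries lay below and the FSK libraries above all baseline libraries. Log2 fold changes were -0.23 ± 0.06 and 0.30 ± 0.06 (SE; edgeR adjusted p = 0.00152 and 1.3e-04). With CBPi it had 72.9, 79.2 and 78.0 CPM, which overlapped baseline at -0.13 ± 0.06 (0.053), and it passed without CBPi replicate 2 (-0.16), baseline replicate 1 (-0.18), EZH2i replicate 3 (-0.13) or FSK replicate 2 (-0.13). In all it passed with CBPi in 7 of 21 alternatives.

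EIF2S2, the β subunit gene, moved apart from the α subunit gene with CBPi. It had 119.5, 116 and 111 CPM with EZH2i, 162, 184 and 172 CPM with CBPi and 169.5, 159.6 and 170.4 CPM with FSK, against 126, 126 and 128 CPM at baseline. CBPi and FSK lay above baseline and EZH2i below, at log2 fold changes of 0.45, 0.39 and -0.13 ± 0.05 (SE; edgeR adjusted p = 1.12e-07, 7.47e-07 and 0.022). The last missed the threshold without EZH2i replicate 3 (-0.11) or baseline replicate 3 (-0.13), and in 3 of 21 alternatives in all. The γ subunit gene EIF2S3 was lower with EZH2i (-0.46) and higher with FSK (0.22). Its autosomal copy EIF2S3B, at 5.47, 5.56 and 6.16 CPM with EZH2i against 8.12, 9.42 and 9.32 CPM at baseline, fell by 0.65 on the log2 scale with EZH2i (edgeR adjusted p = 1.64e-05). Both genes begin with the same pyrimidine run, and reads of the pair may be split between them. The non-canonical tRNA carriers went opposite ways with EZH2i, EIF2A higher (0.15) and EIF2D lower (-0.31).

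The eIF2B genes encode the exchange factor that is blocked by phosphorylated eIF2. Of 5, 0 were higher and 4 lower with EZH2i, 0 higher and 1 lower with CBPi (EIF2B2, -0.47), and 3 higher and 0 lower with FSK by edgeR's test. Each of these counts of 0 was also 0 unadjusted and by DESeq2 and limma voom. The calls made up 80%, 20% and 60% of the 5, beside 71%, 72.3% and 62% of genes with a mean of at least 10 CPM. EIF2B4 (chr2:27364352-27370486, minus strand) showed the largest change with FSK, at 45.3, 45.6 and 48.2 CPM, against 29.5, 34.2 and 33.8 CPM at baseline. Every FSK library was higher, with a log2 fold change of 0.51 ± 0.07 (SE; edgeR adjusted p = 3.91e-06). It had 31.6, 33.8 and 36.2 CPM with EZH2i and 30.2, 35.9 and 32.9 CPM with CBPi, both overlapping baseline (0.06 and 0.02, adjusted p = 0.513 and 0.81). EIF2B1 was lower with EZH2i (-0.17), and EIF2B3 was lower with EZH2i (-0.30) and higher with FSK (0.23). EIF2B5, the catalytic subunit gene, had 41.5, 41.9 and 43.2 CPM with EZH2i, 39.5, 45.1 and 43.8 CPM with CBPi and 49.2, 52.6 and 53.5 CPM with FSK, against 44.2, 47.8 and 48.9 CPM at baseline. Its values sat at the threshold throughout, at -0.16, -0.13 and 0.14 ± 0.06 (edgeR adjusted p = 0.026, 0.0598 and 0.0501). Leaving out EZH2i replicate 1 or 2, or baseline replicate 2 or 3, ended the EZH2i call (-0.15 to -0.13). Leaving out CBPi replicate 2 or baseline replicate 1 brought the CBPi value past it (-0.18 for both), and leaving out CBPi replicate 1 or 2, FSK replicate 1 or baseline replicate 3 brought the FSK value past it (0.13 to 0.17). Of all 21 alternatives, 5 ended the EZH2i call, 4 brought the CBPi value past the threshold and 7 the FSK value.

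The eIF3 complex is the large scaffold that links mRNA, eIF4G and the small subunit. Of its 14 tested genes, 2 were higher and 8 lower with EZH2i, 6 higher and 6 lower with CBPi, and 9 higher and 1 lower with FSK. That is 71.4%, 85.7% and 71.4% called, beside 71%, 72.3% and 62% of genes with a mean of at least 10 CPM. The summed level of all 14 was 1912, 1918 and 1867 CPM with EZH2i, 2051, 2085 and 2041 CPM with CBPi and 2376, 2338 and 2380 CPM with FSK, against 2003, 2026 and 2015 CPM at baseline. The 4 groups did not overlap, in the order EZH2i, baseline, CBPi and FSK. Scaled by library size alone, the sum ran from 1906 to 1963 with EZH2i, 2038 to 2105 with CBPi, 2268 to 2279 with FSK and 2022 to 2038 at baseline, where the CBPi and baseline ranges met at 2038.

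Within eIF3 the subunits did not keep 1 ratio. EIF3A, the largest subunit gene, was higher with all 3 treatments, at 478, 476 and 436 CPM with EZH2i, 496, 484 and 473 CPM with CBPi and 499, 507 and 498 CPM with FSK, against 428, 401 and 398 CPM at baseline. There was no overlap, and the log2 fold changes were 0.18, 0.24 and 0.29 ± 0.04 (SE; edgeR adjusted p = 0.0011, 5.27e-05 and 6.63e-06). EIF3D, a subunit that can itself bind the cap of some mRNAs, showed the largest eIF3 rise with FSK, at 202, 199 and 203 CPM, against 149, 152 and 151 CPM at baseline. All 3 FSK libraries were far above baseline, at 0.42 ± 0.04 (SE; edgeR adjusted p = 9.23e-09). It had 159, 167.5 and 161 CPM with EZH2i and 164, 168 and 169 CPM with CBPi, at smaller rises of 0.11 ± 0.04 and 0.15 ± 0.04 (adjusted p = 0.0157 and 0.00222). The EZH2i call was lost without EZH2i replicate 2 (0.09) or baseline replicate 1 (0.10), and in 3 of 21 alternatives in all.

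EIF3C had 67.3, 67.5 and 66.0 CPM with EZH2i, 79.1, 81.2 and 82.3 CPM with CBPi and 87.6, 90.1 and 92.6 CPM with FSK, against 70.04, 71.1 and 71.6 CPM at baseline. It was higher with CBPi and FSK without overlap (0.19 and 0.35 ± 0.04, SE). The near-identical EIF3CL held 49% to 49.3% of the counts of the pair in each group, so the 2 genes are not independent measures. EIF3B, EIF3G, EIF3I, EIF3J and EIF3K were each lower with EZH2i and CBPi and higher with FSK. For EIF3K these values were -0.43, -0.29 and 0.17, and for EIF3G -0.20, -0.26 and 0.31. EIF3F was the only eIF3 gene lower with FSK (-0.13), and EIF3M had its largest change with CBPi (-0.44). EIF3H and EIF3L were higher with CBPi (0.31 and 0.20) and passed with neither other treatment, and EIF3E was lower with EZH2i (-0.18).

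Of the factors that act at subunit joining, EIF6 changed with all 3 treatments and EIF5B passed with CBPi. EIF6 (chr20:35278911-35284985, minus strand) encodes the factor that keeps free large subunits from joining and is needed for their making. It had 62.6, 64.9 and 67.1 CPM with EZH2i, 85.5, 87.0 and 85.7 CPM with CBPi and 118, 109 and 113 CPM with FSK, against 91.5, 99.6 and 95.5 CPM at baseline. The 4 groups did not overlap. The log2 fold changes were -0.56, -0.15 and 0.25 ± 0.05 (SE; edgeR adjusted p = 3.7e-09, 0.00885 and 1.62e-04), and that with CBPi missed the threshold without baseline replicate 2 (-0.12, adjusted p = 0.0608). EIF5B, the GTPase of joining, was lower with CBPi (-0.14) and did not pass with EZH2i (0.00) or FSK (0.10).

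The eIF5A paralogues EIF5A and EIF5A2 changed in opposite directions with each treatment. EIF5A (chr17:7306999-7312463, plus strand), the widely expressed gene, had 417, 430.2 and 426 CPM with EZH2i, 413, 383 and 417 CPM with CBPi and 824, 726 and 786 CPM with FSK, against 615, 644 and 662 CPM at baseline. EIF5A2 (chr3:170888415-170908693, minus strand), a paralogue known to be amplified in some cancers, had 36.1, 36.7 and 36.7 CPM with EZH2i, 33.0, 35.0 and 32.5 CPM with CBPi and 15.9, 14.98 and 14.4 CPM with FSK, against 20.1, 21.1 and 20.5 CPM at baseline. EIF5A lay below baseline in all 6 inhibitor libraries and above it in all 3 FSK libraries, and EIF5A2 the other way round, with no overlap.

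For EIF5A the log2 fold changes were -0.59 ± 0.05 with EZH2i, -0.66 ± 0.05 with CBPi and 0.28 ± 0.05 with FSK (SE; edgeR adjusted p = 1.35e-09, 2.39e-10 and 3.46e-05). For EIF5A2 they were 0.83 ± 0.06, 0.70 ± 0.06 and -0.44 ± 0.06 (1.71e-10, 2.49e-09 and 6.33e-06). All 6 calls held in each of 21 alternatives. The rise of EIF5A2 was above 1.5-fold with EZH2i (glmTreat adjusted p = 5.54e-04) and not shown to be above it with CBPi (0.0568). Of the summed per-kb level of EIF5A2 and EIF5A, EIF5A2 took 4.0% ± 0.026 with EZH2i, 3.87% ± 0.33 with CBPi, 0.933% ± 0.055 with FSK and 1.53% ± 0.049 at baseline (SD, n = 3 each). EIF5A remained the main form in every library. EIF5AL1 (chr10:79512601-79516440, plus strand), an intronless copy of EIF5A, followed EIF5A at -0.57, -0.64 and 0.28. Reads may be split between these copies, so EIF5AL1 is not separate evidence. The EIF5A copies together held 8.25% to 8.34% of that family's counts in each group.

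**Figure D3:**
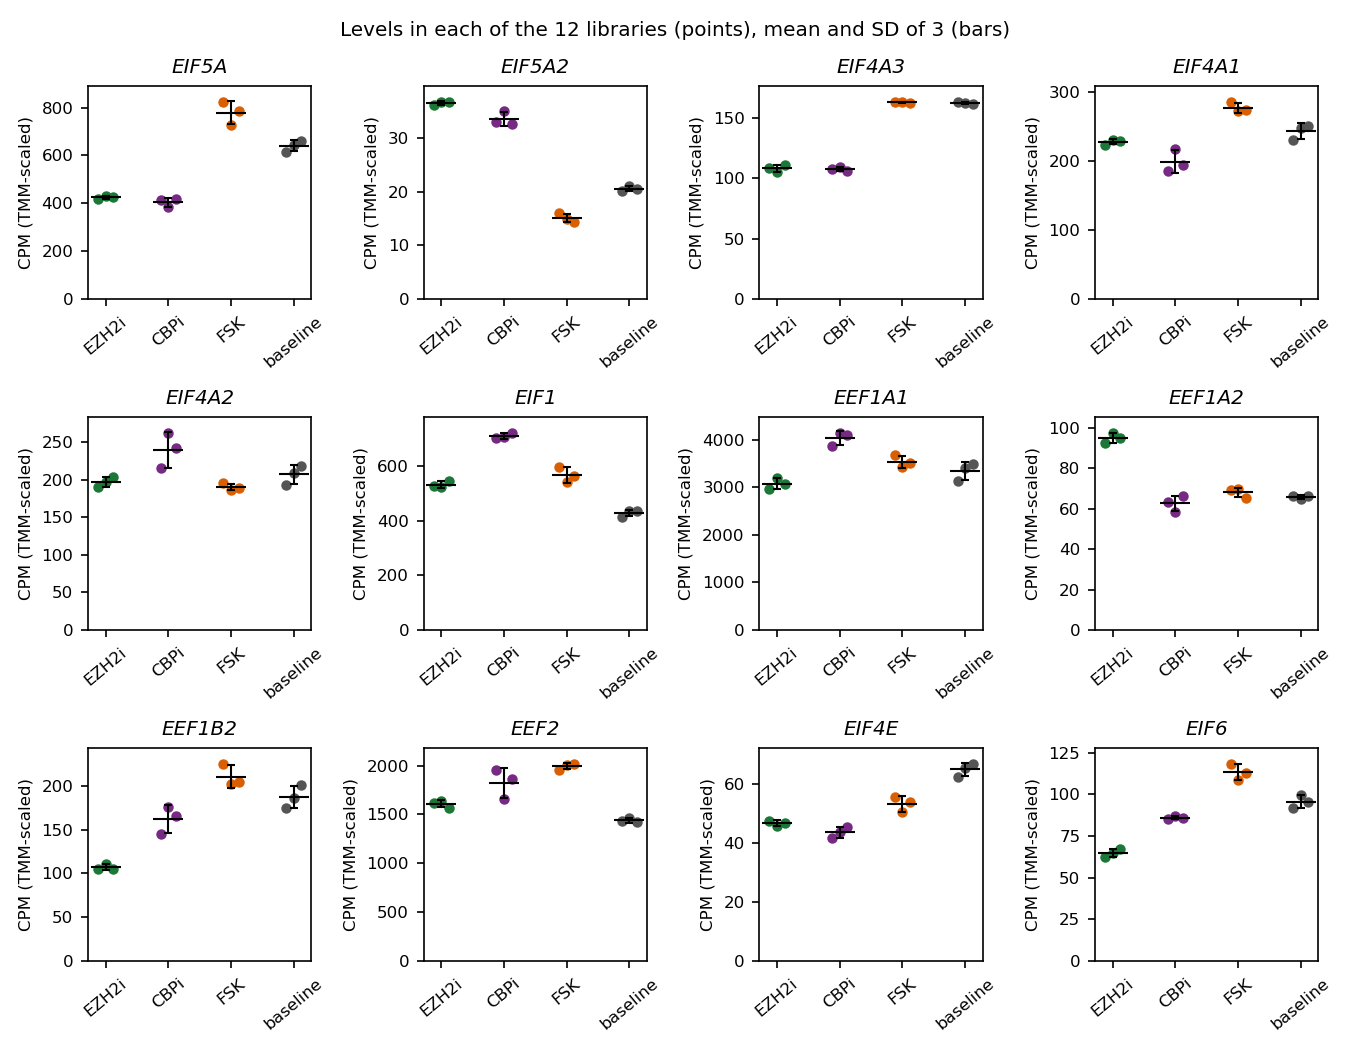
TMM-scaled CPM (y axis, from 0) of 12 members in each library (points), with the mean and SD of 3 libraries (bars), in the order EZH2i, CBPi, FSK and baseline. EIF5A and EIF5A2 mirror each other across the groups, EIF4A3 is near 108 CPM with both inhibitors and near 163 CPM in the other 6 libraries, and EEF1A2 stands out only with EZH2i.

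The elongation factor genes leaned lower with EZH2i. Of 8 tested, 2 were higher and 6 lower with EZH2i, 2 higher and 4 lower with CBPi, and 4 higher and 2 lower with FSK. The calls made up 100%, 75% and 75% of the 8, beside 71%, 72.3% and 62% of genes with a mean of at least 10 CPM. Under library size alone the EZH2i split became 2 higher and 4 lower, and the FSK split 1 higher and 2 lower. The 6 lower with EZH2i include both EEF1E1 and the readthrough gene EEF1E1-BLOC1S5, which overlaps it. With 1 library left out, the EZH2i calls of EEF1A1 and EEF1D were lost in 4 and 3 of 12 fits. EEF1A1 (chr6:73515750-73523797, minus strand), the widely expressed eEF1A gene, had 2976, 3193 and 3072 CPM with EZH2i, 3872, 4150 and 4105 CPM with CBPi and 3681, 3430 and 3515 CPM with FSK, against 3127, 3400 and 3490 CPM at baseline. The CBPi libraries were the highest and did not overlap baseline, while EZH2i and FSK did. The log2 fold change with CBPi was 0.28 ± 0.04 (SE; edgeR adjusted p = 2.32e-05), and that with FSK 0.09 ± 0.04 (0.121). With EZH2i it was -0.12 ± 0.04 (0.0311), a call that was lost without EZH2i replicate 1 (-0.09) or 3 (-0.12), or baseline replicate 2 (-0.11) or 3 (-0.09). In all, 6 of 21 alternatives lost this call. The 49 EEF1A1 copies held 39% to 39.2% of that family's counts in each group, and the family sum gave -0.12, 0.27 and 0.09 with EZH2i, CBPi and FSK.

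EEF1A2 (chr20:63488012-63499322, minus strand), the paralogue known from neurons and muscle, was higher with EZH2i only. It had 92.3, 97.6 and 94.8 CPM with EZH2i, 63.3, 58.5 and 66.0 CPM with CBPi and 69.2, 69.6 and 65.3 CPM with FSK, against 66.4, 64.8 and 66.2 CPM at baseline. All 3 EZH2i libraries were above the other 9. The log2 fold change was 0.53 ± 0.05 (SE; edgeR adjusted p = 1.48e-08), and the differences with CBPi and FSK were -0.07 and 0.05 ± 0.05 (0.241 and 0.44). The direct tests gave EZH2i above CBPi by 0.60 ± 0.05 and above FSK by 0.48 ± 0.05 (edgeR adjusted p = 6.61e-09 and 3.68e-08). EEF1A2 took 3.41% ± 0.025 of the summed per-kb level of EEF1A2 and EEF1A1 with EZH2i, 1.75% ± 0.14 with CBPi, 2.16% ± 0.10 with FSK and 2.22% ± 0.14 at baseline (SD, n = 3 each).

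Of the eEF1B exchange subunits, EEF1B2 fell the most. EEF1B2 (chr2:206159585-206162928, plus strand), whose TOP start is shown above, had 105, 111 and 105 CPM with EZH2i, 145, 176 and 166 CPM with CBPi and 225, 202 and 205 CPM with FSK, against 175, 186 and 201 CPM at baseline. The EZH2i libraries were the lowest and did not overlap any other group, and CBPi overlapped baseline. The fall with EZH2i was -0.80 ± 0.07 (SE; edgeR adjusted p = 6.46e-09) and above 1.5-fold (glmTreat adjusted p = 0.0047). The CBPi and FSK changes of -0.20 and 0.17 ± 0.06 were weaker (edgeR adjusted p = 0.0116 and 0.0334). The CBPi call was lost without CBPi replicate 1 (-0.13) or baseline replicate 3 (-0.15). The FSK call was lost under library size alone (0.10) and without FSK replicate 1 (0.12), baseline replicate 1 (0.12) or baseline replicate 2 (0.17). EEF1G and EEF1D, the γ and δ subunit genes, were lower with EZH2i (-0.33 and -0.15) and higher with FSK (0.10 and 0.14), and EEF1D was also lower with CBPi (-0.15). EEF1E1, known for a scaffold of tRNA synthetases, was lower with all 3 (-0.47, -0.24 and -0.25), and the readthrough gene EEF1E1-BLOC1S5, which overlaps it, gave -0.48, -0.31 and -0.30.

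EEF2 (chr19:3976056-3985469, minus strand), the translocase gene, was higher with all 3 treatments. It had 1622, 1639 and 1568 CPM with EZH2i, 1952, 1659 and 1859 CPM with CBPi and 1957, 2006 and 2019 CPM with FSK, against 1437, 1462 and 1418 CPM at baseline. No treated library overlapped baseline. Log2 fold changes were 0.16, 0.34 and 0.47 ± 0.05 (SE; edgeR adjusted p = 0.00533, 2.65e-06 and 3.71e-08), and all 3 held in each of 21 alternatives. Among the 50 members with a promoter window, EEF2 was the only gene whose window holds the palindromic cAMP response element TGACGTCA. The stretch chr19:3985439-3985506 (GRCh38.p14, minus strand) is shown because forskolin raises cAMP, with that motif in capitals, starting 13 bases before the annotated start.
EEF2 promoter: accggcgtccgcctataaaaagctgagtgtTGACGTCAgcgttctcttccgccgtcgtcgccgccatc
The motif reads the same on both strands and was in the windows of 2.0% of the 50 members and 3.00% of 15843 protein-coding genes. The presence of these letters does not show that a factor bound there. A second motif that was searched for, TGATGNAA (N for any base), was in a window of EIF4E3 only. It was in the windows of 3.60% of the 15843 protein-coding genes.

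Of the 6 tested genes for enzymes that modify elongation factors, 0 were higher and 1 lower with EZH2i. With CBPi 2 were higher and 2 lower, and with FSK 3 higher and 1 lower. The count of 0 was also 0 unadjusted and by DESeq2 and limma voom. The calls made up 16.7%, 66.7% and 66.7% of the 6, beside 71%, 72.3% and 62% of genes with a mean of at least 10 CPM. EEF2K, the kinase that halts eEF2, had 25.8, 25.4 and 23.4 CPM with EZH2i, 28.0, 26.9 and 28.3 CPM with CBPi and 30.2, 32.6 and 31.6 CPM with FSK, against 26.3, 25.5 and 25.5 CPM at baseline. The FSK libraries were the highest, at 0.29 ± 0.06 (SE; edgeR adjusted p = 3.43e-04), and the EZH2i and CBPi differences of -0.05 and 0.11 did not pass (0.485 and 0.131). EEF2KMT, a methyltransferase of eEF2, was higher with FSK (0.39) and lower with EZH2i (-0.24). The EZH2i call of EEF2KMT was lost in 3 of 12 fits without 1 library. The eEF1A lysine methyltransferase genes split with CBPi, EEF1AKMT2 and EEF1AKMT3 being higher (0.24 and 0.45) and EEF1AKMT4 lower (-0.47). The EEF1AKMT2 call (edgeR adjusted p = 0.0415) was lost in 6 of 12 fits without 1 library. The readthrough gene EEF1AKMT4-ECE2 overlaps EEF1AKMT4 and gave -0.46 with CBPi. With FSK, EEF1AKMT2 was lower (-0.29) and EEF1AKMT4-ECE2 higher (0.28), calls lost in 4 and 6 of 12 such fits. The levels of these methyltransferase genes were low, at 3.83 to 11.3 CPM in the CBPi libraries.

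Set side by side, 7 members were higher with all 3 treatments (EIF1, EIF5, EIF3A, EIF3D, EIF4G2, EIF4G3 and EEF2), and 5 were lower with all 3 (EIF4E, EIF4E2, EIF1AX, EEF1E1 and EEF1E1-BLOC1S5). A further 11 were lower with both inhibitors and higher with FSK (EIF5A, EIF5AL1, EIF6, EIF2B2, EIF3B, EIF3G, EIF3I, EIF3J, EIF3K, EEF1B2 and EEF1D), and EIF5A2 alone was higher with both inhibitors and lower with FSK. How many of all genes share each joint pattern was not counted, so these counts are not shown to be particular to the factors. Many of these calls were small. Of the 132 calls of members against baseline, 36 were lost in at least 1 of 12 fits that each left out 1 library, and 0 changed sign. All 3 calls held in every such fit for EEF2, EIF1, EIF3A and EIF4G3, for EIF4E, EIF1AX and EEF1E1-BLOC1S5, and for EIF5A, EIF5AL1, EIF3G, EIF3K and EIF5A2. The other members of these sets lost at least 1 call. EIF4E3 with CBPi (-0.31 to -0.20 where lost) and EEF1G with FSK (0.07 to 0.12) were the least stable among the members given by fold change alone, at 10 and 9 of the 12 fits. Because the baseline libraries are shared, a low or high baseline value enters all 3 comparisons of a gene.

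The direct tests between treatments do not use the baseline means. The FSK group differed from the inhibitor groups in time with the agent as well as in agent, and the 2 cannot be told apart. Against FSK, EZH2i had 5 members higher and 45 lower (30.3% and 31.3% of all genes), or 10 and 36 under library size alone. CBPi against FSK had 13 higher and 39 lower (29.3% and 29.5% of all genes). EZH2i against CBPi had 10 higher and 26 lower (21.7% and 22.2% of all genes). The direction of the direct tests against FSK was fixed for the 11 members picked as lower with both inhibitors and higher with FSK. All 11 passed as lower in both, which is not separate support. Changes above 1.5-fold were found in EZH2i against FSK, where 18.5% of all genes passed, for EIF5A2 (1.27 ± 0.06, higher), EEF1B2 (-0.97 ± 0.07), EIF5A (-0.88 ± 0.05), EIF5AL1 (-0.86 ± 0.06), EIF6 (-0.81 ± 0.05) and EIF2S3B (-0.78 ± 0.10). In CBPi against FSK (15.3% of all genes) they were found for EIF5A2 (1.15 ± 0.06, higher), EIF5A (-0.95 ± 0.05) and EIF5AL1 (-0.92 ± 0.07). None was found in EZH2i against CBPi (4.88% of all genes), where 0 members passed this test adjusted or unadjusted and 36 passed edgeR's test of any change.

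The inhibitors differed from each other in named members. EIF2S2 was lower with EZH2i than with CBPi by 0.58 on the log2 scale (-0.58 ± 0.05, edgeR adjusted p = 6.99e-09). EEF1B2 (-0.60 ± 0.07), EIF2S3 (-0.49 ± 0.05), EIF5 (-0.45 ± 0.04), EIF1 (-0.42 ± 0.04), EIF6 (-0.41 ± 0.05) and EEF1A1 (-0.39 ± 0.04) were also lower with EZH2i than with CBPi. EEF1A2 (0.60 ± 0.05), EIF4E3 (0.59 ± 0.11) and EIF3M (0.24 ± 0.06) were higher with EZH2i than with CBPi. For EIF5A, EIF5A2 and EIF4A3 the difference was 0.07 ± 0.05, 0.12 ± 0.05 and 0.00 ± 0.04 (SE; edgeR adjusted p = 0.246, 0.0682 and 0.977).

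Genes that control the factors were read from a list of 21 initiation regulators, of which 9 were higher and 6 lower with EZH2i, 10 higher and 5 lower with CBPi, and 7 higher and 7 lower with FSK (5 and 10 under library size alone). The median log2 fold change was 0.02, 0.09 and 0.08. The share called was 71.4%, 71.4% and 66.7%, near the 71%, 72.3% and 62% among genes with a mean of at least 10 CPM. PPP1R15A (GADD34), which brings a phosphatase to eIF2α, had the largest rise, at 196, 198 and 205 CPM with EZH2i, 281, 259.9 and 285 CPM with CBPi and 114, 116 and 123 CPM with FSK, against 54.8, 61.6 and 62.6 CPM at baseline. Every treated library was above baseline, by 1.74, 2.21 and 0.98 ± 0.05 (SE; edgeR adjusted p = 7.22e-16, 2.3e-17 and 4.46e-12). EIF2AK3 (PERK), the eIF2α kinase of the endoplasmic reticulum, had 49.6, 48.9 and 45.9 CPM with EZH2i and 44.8, 44.8 and 42.5 CPM with CBPi, against 25.3, 27.1 and 26.8 CPM at baseline. It was higher with both inhibitors (0.87 and 0.74 ± 0.05) and did not pass with FSK (28.0, 29.1 and 29.7 CPM, 0.13 ± 0.06, adjusted p = 0.0602).

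EIF4EBP1, whose product holds eIF4E away from eIF4G, had 72.3, 77.0 and 71.5 CPM with EZH2i, 147, 123 and 149.5 CPM with CBPi and 96.4, 98.2 and 101 CPM with FSK, against 58.6, 56.1 and 63.0 CPM at baseline. It was higher with all 3, most with CBPi, at 0.32, 1.24 and 0.74 ± 0.06 (SE; edgeR adjusted p = 3.14e-04, 2.13e-12 and 7.35e-09). EIF4E, its target, was lower in the same libraries. PDCD4, an inhibitor of eIF4A, was lower with all 3, most with FSK, at 44.5, 44.6 and 43.4 CPM with EZH2i, 43.9, 43.6 and 44.6 CPM with CBPi and 31.9, 29.96 and 33.9 CPM with FSK, against 52.9, 55.6 and 54.1 CPM at baseline (-0.30, -0.30 and -0.77 ± 0.05, SE). PAIP2B, which pulls the poly(A)-binding protein off initiation, fell with all 3 (-0.34, -0.89 and -0.94). LARP1, the binder of TOP starts, was higher with EZH2i and CBPi (0.44 and 0.46) and did not pass with FSK (0.08). EIF4EBP3, a low-level relative of EIF4EBP1, was higher with all 3 (1.07, 0.60 and 0.47), and so was MTOR (0.36, 0.39 and 0.26).

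**Figure D4:**
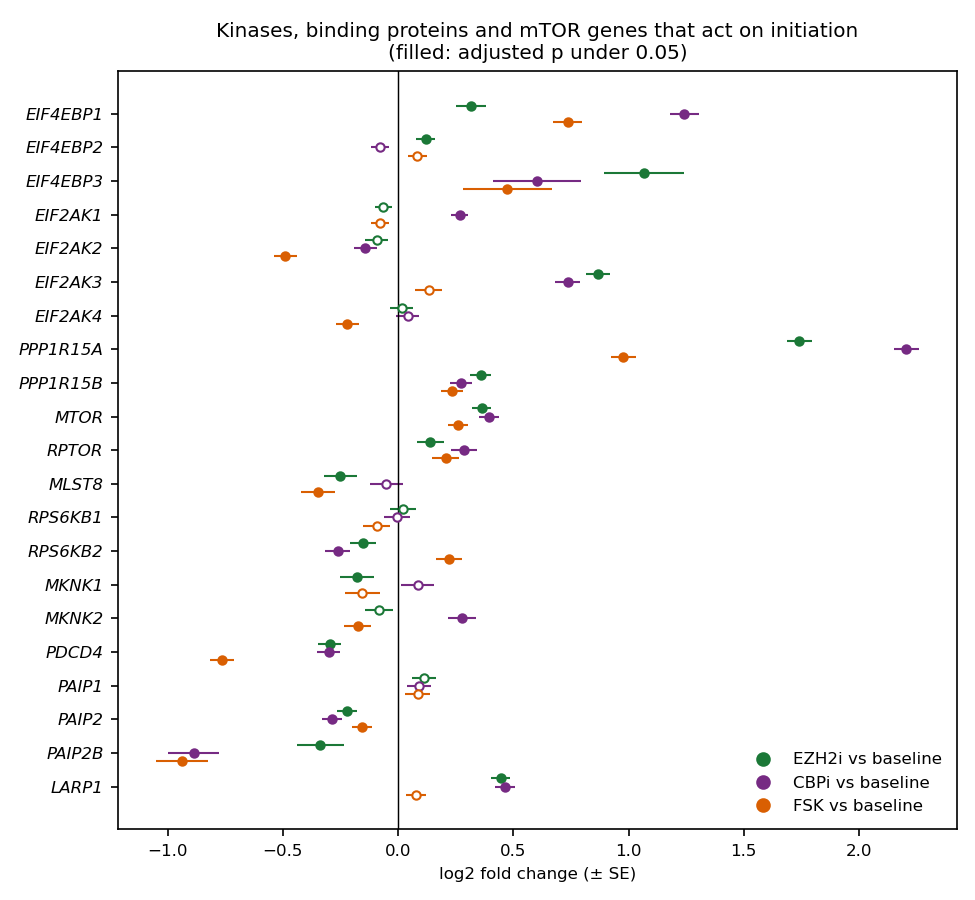
Log2 fold change against baseline (x axis, ± SE) of 21 genes that regulate initiation, for EZH2i (green), CBPi (purple) and FSK (orange); filled points passed at an adjusted p under 0.05. PPP1R15A lies furthest to the right with all 3 treatments (1.74, 2.21 and 0.98), and PAIP2B and PDCD4 lie to the left with all 3.

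Other lists of the pathway are given by their counts. Among genes with a mean of at least 10 CPM, 71%, 72.3% and 62% were called with EZH2i, CBPi and FSK. For the auxiliary factors this share was 58.3%, 75% and 83.3%, and for the termination and recycling factors 60%, 80% and 80%. Of 12 auxiliary initiation factors, 4 were higher and 3 lower with EZH2i, 5 higher and 4 lower with CBPi, and 10 higher and 0 lower with FSK (7 and 1 under library size alone). No more were lower unadjusted or by DESeq2 and limma voom (0 each). The poly(A)-binding protein genes PABPC1 (0.22, 0.56 and 0.28) and PABPC4 (0.40, 0.44 and 0.47) were higher with all 3. Of 5 termination and recycling factors, 2 were higher and 1 lower with EZH2i, 3 higher and 1 lower with CBPi, and 3 higher and 1 lower with FSK. PELO, which rescues stalled ribosomes, stood out with FSK, at 345, 360.4 and 363 CPM, against 202, 203 and 193 CPM at baseline (0.84 ± 0.04, SE; edgeR adjusted p = 3.77e-13).

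The 9 enzymes that make hypusine on eIF5A and diphthamide on eEF2 had 0 higher and 3 lower with EZH2i, 3 higher and 2 lower with CBPi, and 3 higher and 1 lower with FSK by edgeR's test. The count of 0 with EZH2i was also 0 unadjusted and by DESeq2 and limma voom. The calls made up 33.3%, 55.6% and 44.4% of the 9, beside 71%, 72.3% and 62% of genes with a mean of at least 10 CPM. The hypusine enzyme genes DHPS and DOHH passed with none of the treatments (-0.08 and -0.08 with EZH2i, -0.12 and -0.18 with CBPi, 0.05 and 0.19 with FSK), while DPH6 was lower with all 3 (-0.42, -0.38 and -0.50). DPH2 had the largest fall of the 9 with EZH2i (-0.51). It averaged 54.5 ± 2.8 CPM with EZH2i, 61.6 ± 1.2 with CBPi and 92.1 ± 3.3 with FSK, against 77.8 ± 0.33 CPM at baseline (SD, n = 3 each). Of 10 mitochondrial translation factors, 0 were higher and 7 lower with EZH2i, 3 higher and 4 lower with CBPi, and 6 higher and 0 lower with FSK (4 and 2 under library size alone). The count of 0 with EZH2i was 0 also unadjusted, that with FSK was 1 unadjusted, and both were 0 by DESeq2 and limma voom. The share of these 10 called was 70%, 70% and 60%, near that of genes with a mean of at least 10 CPM. TSFM, the mitochondrial exchange factor gene, had 23.1, 23.0 and 22.1 CPM with EZH2i and 26.8, 26.3 and 27.1 CPM with CBPi, against 41.7, 46.7 and 47.0 CPM at baseline. Both inhibitor groups were lower without overlap (-0.99 and -0.76 ± 0.06, SE; edgeR adjusted p = 9.7e-12 and 5.45e-10), and with EZH2i GFM2 (-0.81), GFM1 (-0.58) and TUFM (-0.52) were lower too.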

How the data were processed

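Polyadenylated RNA of 12 libraries was analysed, 4 groups of 3. Per the submitters' processing notes, reads were aligned with STAR to hg38 and counted with featureCounts. How strand and multimapping reads were treated is not stated in the labels, so a gene, its copies and overlapping antisense genes may share reads. The authors deposited estimated counts (expected counts) for 60617 genes, of which 65.6% of non-zero values are whole within 1e-06, and a gene length column of another unit, used only for levels per kb. Every column of counts carried the name of 1 sample, and 0 columns stayed unmatched. Gene positions came from GENCODE release 29, and promoter sequences from RefSeq (GRCh38.p14).

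Counts were rounded and fitted in R 4.3.3 with edgeR 4.0.16. Genes were kept by filterByExpr (minimum count 10, 4 groups), which left 20360 genes, with TMM factors for scaling, which the CPM also carry. A single robust quasi-likelihood fit of all 12 libraries gave the 6 comparisons, with Benjamini-Hochberg adjustment over all genes and a threshold of 0.05. A test against 1.5-fold used glmTreat. The SE is the log2 fold change divided by the square root of F. Replicates are cultures of 1 line, and p-values cover only their spread. The scripts were tested on simulated data. Genes given per library are the 6 largest non-overlapping changes called in each comparison with baseline and 18 fixed members; EIF4G3 was added after its values were seen, and other members are given by fold change. From each list up to 4 genes with the largest changes per comparison are named. MTOR, DHPS and DOHH were chosen after their values were seen. The members, lists, naming rule and tests were chosen with earlier results of these data known. Alternatives were DESeq2 1.42.0, limma 3.58.1 voom, other scalings and filters, 2-group fits, 12 fits without 1 library, members with near-identical copies left out and, added after seeing the data, each gene summed with its annotated copies.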

Additional observations from a re-analysis of the deposited data

How the results depend on the processing

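No paired analysis was possible because the labels give no replicate numbers. Counts of members called stayed within 1.5 times the main count under RLE and upper-quartile scaling, both other filters, DESeq2, limma voom, fits of 2 groups, and with copies left out or summed. Under library size alone, members higher in EZH2i against FSK numbered 10 in place of 5. The 1.5-fold test, by its construction, called fewer: 1 higher and 1 lower with EZH2i, 1 and 0 with CBPi, 0 and 0 with FSK, 0 and 0 for EZH2i against CBPi, 1 and 5 for EZH2i against FSK, and 1 and 2 for CBPi against FSK. With 1 library left out, the members lower with FSK ranged from 5 to 12; other counts stayed within 1.5 times. Of 75 results on the 25 members chosen by the naming rule, which leaves out EIF4G3, 52 kept direction and side of the threshold in all alternatives; 57 were called, and 0 of these reversed. Reversals were in values that did not pass: with FSK, EIF4A3 was -0.0033 under RLE and DESeq2, -0.0619 under library size alone, -0.006 without a filter and -0.002 without CBPi replicate 2, and EEF1A2 was -0.0195 under library size alone. With 1 library left out, EIF4A3 with FSK ranged from -0.002 to 0.0087, EIF2B4 with CBPi from -0.0508 (without CBPi replicate 2) to 0.0768, at -0.0459 without baseline replicate 1, and EIF2B4 with EZH2i from -0.0118 (without baseline replicate 1) to 0.1043. The cause was not tested.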
